A study of Homo sapiens with 8 samples.

Results

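The luminal keratins and epithelial adhesion genes described here are 10 genes chosen by name: KRT8, KRT18, KRT19, CDH1, EPCAM, CLDN3, CLDN4, CLDN7, OCLN and TJP1. They were read from a table of 55737 genes measured by RNA sequencing in LNCaP, an androgen-responsive human prostate cancer line of luminal type that was established from a metastasis. Cells received 0.5 µM AT7519 with 40 µM OSMI-2 (called the combination), 0.5 µM AT7519 alone, 40 µM OSMI-2 alone, or a control treatment, each for 4 hours, with 2 libraries per group. AT7519 blocks several cyclin-dependent kinases, among them CDK9, which releases paused RNA polymerase II, and OSMI-2 blocks OGT, which adds O-GlcNAc sugars to intracellular proteins. Doses follow the series design (the labels elsewhere state these numbers as mM). The series asks whether cells with OGT blocked come to depend on CDK9. All groups are the same bulk culture line, so fewer cells of a type and less RNA per cell cannot be told apart, and the labels do not say whether replicates were separate cultures.

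Simple epithelia and luminal prostate cells fill their cytoplasm with filaments of the type II keratin 8 (KRT8) paired with the type I keratins 18 and 19 (KRT18, KRT19). E-cadherin (CDH1) holds neighbouring cells together at adherens junctions, and EPCAM is a membrane glycoprotein that binds claudin 7 and modulates cell contacts. Claudins 3, 4 and 7 (CLDN3, CLDN4, CLDN7) and occludin (OCLN) span the membrane at tight junctions, and ZO-1 (TJP1) is the scaffold that ties them to actin. CDH1, several claudins and OCLN are known targets of the repressors Snail (SNAI1) and Slug (SNAI2), which bind the E-box CAGGTG.

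Values are normalised counts, meaning reads per gene scaled by the authors with a single factor for each library, and between 60152710 and 154367238 reads per library fell on genes. The 19393 genes that averaged 10 or more normalised counts were tested with limma on log2(normalised count + 1), and a gene was called at a Benjamini-Hochberg adjusted p below 0.05 over all of them. The p-values measure the spread between libraries, which may be technical. Of the 10 genes, 9 were tested, and CLDN3 was listed at 0 in all 8 libraries, as were 12.5% of protein-coding symbols, among them the widely expressed DNAJC30, so nothing is read from it. All 11 luminal prostate markers were tested, and KLK3 (prostate-specific antigen) had between 93639 and 156730.0 normalised counts. Against control, 2 of the 11 were called higher and 3 lower with AT7519, and 5 higher and 3 lower with the combination. Among all tested genes 53.2% and 53.9% were called. Of 9 basal markers 4 were tested, ITGA6 (6922 to 8323 normalised counts), DST (2037 to 3420), ITGB4 (175 to 281) and KRT14 (40.0 to 104). Of the defining ones, KRT5 and TP63 did not exceed 2.94 and 1.82. KRT17 was listed at 0 in all 8 libraries, and, as for CLDN3, nothing is read from it. The basal list summed to 9963 to 10893 with the combination, 9392 to 9608 with AT7519, 11416 to 11832 with OSMI-2 and 10803 to 11411 in control. The share of mitochondrial mRNAs was 6.57% to 7.73% in the 4 libraries with AT7519, against 4.45% to 5.53% in the 4 without it.

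RefSeq promoter windows (GRCh38.p14, 250 bases before to 50 after an annotated start) were available for OCLN, CLDN3, CLDN4, KRT8, TJP1 and CLDN7, with 11 windows in all. The CLDN7 and TJP1 windows shown were picked because they hold the motif described next. Shown are 1 window each of CLDN7 and KRT8, whose counts were higher with AT7519 on the scale deposited by the authors. Those of OCLN, TJP1 and CLDN4, whose counts were lower, follow. They are shown because the repressors that read the E-box also changed. Capitals mark CAGGTG on either strand (CAGGTG or CACCTG). The windows are CLDN7 at chr17:7262429-7262728 on the minus strand, KRT8 at chr12:52926420-52926719 on the minus strand, OCLN at chr5:69492297-69492596 on the plus strand, TJP1 at chr15:29969000-29969299 on the minus strand and CLDN4 at chr7:73830746-73831045 on the plus strand.
CLDN7: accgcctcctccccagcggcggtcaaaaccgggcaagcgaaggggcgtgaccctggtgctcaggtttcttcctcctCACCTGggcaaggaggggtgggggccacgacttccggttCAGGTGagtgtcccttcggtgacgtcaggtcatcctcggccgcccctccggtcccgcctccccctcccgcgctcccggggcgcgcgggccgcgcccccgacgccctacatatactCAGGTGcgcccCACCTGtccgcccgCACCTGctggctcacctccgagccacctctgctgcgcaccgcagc
KRT8: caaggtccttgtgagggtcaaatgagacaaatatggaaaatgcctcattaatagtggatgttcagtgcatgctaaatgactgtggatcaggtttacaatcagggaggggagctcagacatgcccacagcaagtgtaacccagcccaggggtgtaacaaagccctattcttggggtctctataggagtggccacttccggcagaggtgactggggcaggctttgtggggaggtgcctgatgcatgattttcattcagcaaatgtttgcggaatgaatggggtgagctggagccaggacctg
OCLN: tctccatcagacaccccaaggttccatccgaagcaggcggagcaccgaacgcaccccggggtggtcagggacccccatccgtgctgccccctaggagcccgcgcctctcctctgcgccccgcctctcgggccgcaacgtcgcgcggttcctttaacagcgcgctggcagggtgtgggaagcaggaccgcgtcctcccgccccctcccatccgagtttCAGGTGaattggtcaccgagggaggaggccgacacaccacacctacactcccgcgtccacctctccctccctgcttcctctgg
TJP1: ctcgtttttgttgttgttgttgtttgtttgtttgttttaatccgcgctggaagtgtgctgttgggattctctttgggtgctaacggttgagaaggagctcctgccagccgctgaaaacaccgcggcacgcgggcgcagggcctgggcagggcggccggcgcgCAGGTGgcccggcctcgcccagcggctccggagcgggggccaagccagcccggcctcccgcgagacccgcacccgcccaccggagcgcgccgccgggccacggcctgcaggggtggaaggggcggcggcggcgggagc
CLDN4: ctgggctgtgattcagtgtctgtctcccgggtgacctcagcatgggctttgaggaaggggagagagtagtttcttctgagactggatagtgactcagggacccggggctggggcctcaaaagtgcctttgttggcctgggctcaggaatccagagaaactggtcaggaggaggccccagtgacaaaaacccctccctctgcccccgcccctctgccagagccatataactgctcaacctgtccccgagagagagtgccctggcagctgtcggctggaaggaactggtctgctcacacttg
The CLDN7 window held 5 copies of the E-box, those of OCLN and TJP1 held 1 each, and those of KRT8 and CLDN4 held none. The E-box was in 5 of the 11 windows of these genes and in 20.6% of all 35116 RefSeq promoter windows of this length. As the CLDN7 and TJP1 windows were picked for the motif, its presence in them is not a result. Whether the E-box bears on the changes of these genes was not tested. Among the windows not shown, the other CLDN7 window and the other 3 TJP1 windows held no CAGGTG or CACCTG, the other OCLN window held 2 and that of CLDN3 held 1. The letters TATAA on either strand, the core of a TATA box, were, of those shown, in the CLDN4 window, and in 20.4% of all windows. Some of these genes have several starts, and the files do not say which one LNCaP cells use.

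Levels were compared between genes per kilobase of exon (all exons in GENCODE release 29). In control libraries the order was CDH1 (9585 and 8709 normalised counts per kb), KRT18 (7969 and 8623), CLDN7 (7356 and 7040), KRT8 (4633 and 4852), EPCAM (3166 and 3093), TJP1 (1818 and 1949), OCLN (714 and 599), KRT19 (104 and 144) and CLDN4 (13.01 and 7.40). Ranges of neighbours in that order did not overlap, although CDH1 and KRT18 came closer to each other than their own 2 libraries did. The order, within and between groups, depends on the length taken, and other lengths were not tried. All exons of KRT8 total 6881 bases and its longest transcript 2862, against 2492 and 1923 for CLDN7 and 3218 and 2088 for KRT18. Per kb of all exons, CDH1, KRT18 and CLDN7 lay at the 98.3, 98.1 and 97.8 percentiles of protein-coding genes in control, KRT19 at 48.9 and CLDN4 at 36.0. The order of CLDN7 and KRT18 differed by group. CLDN7 had 9718 and 10560.0 normalised counts per kb with the combination and 9713 and 8933 with AT7519, above the 6471 and 7580 (combination) and 8769 and 8521 (AT7519) of KRT18. With OSMI-2 the 7061 and 7467 of CLDN7 overlapped the 7372 and 8045 of KRT18.

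KRT8 and KRT18 supplied 52.2% to 63.0% and 31.3% to 43.4% of all keratin counts, and KRT19 at most 0.873%. Of 55 keratin genes in the table, 30 were listed at 0 in every library. CLDN7 and CLDN12, a claudin outside the 10, supplied 46.8% to 57.7% and 36.2% to 45.7% of the counts of 23 claudins. Claudin counts in these cells were therefore nearly all from those 2 genes, and CLDN4 was measured by 8 to 104 reads per library.

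AT7519 against control asks what blocking CDKs for 4 hours did to these transcripts. On the deposited scale KRT8, KRT19, CDH1, EPCAM and CLDN7 rose and CLDN4, OCLN and TJP1 fell, while KRT18 was not called. The 5 that rose were 1.29 to 1.61 times control, and all 5 were lower than control when libraries were scaled to equal mitochondrial mRNAs. The 3 that fell were lower under each scaling tried. Of the 9 tested genes, 8 were called, where 53.2% of all tested genes were called (26% higher and 27.2% lower). Their median log2 change was 0.37, against -0.0042 for all tested genes. Both AT7519 libraries lay above both control libraries for 5 of them and below for 3, which was so for 37.7% and 38.4% of all tested genes. With 2 libraries against 2, an exact permutation test of a single gene cannot give a two-sided p below 0.333, so the calls rest on the spread that limma pools over genes.

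**Figure D1:**
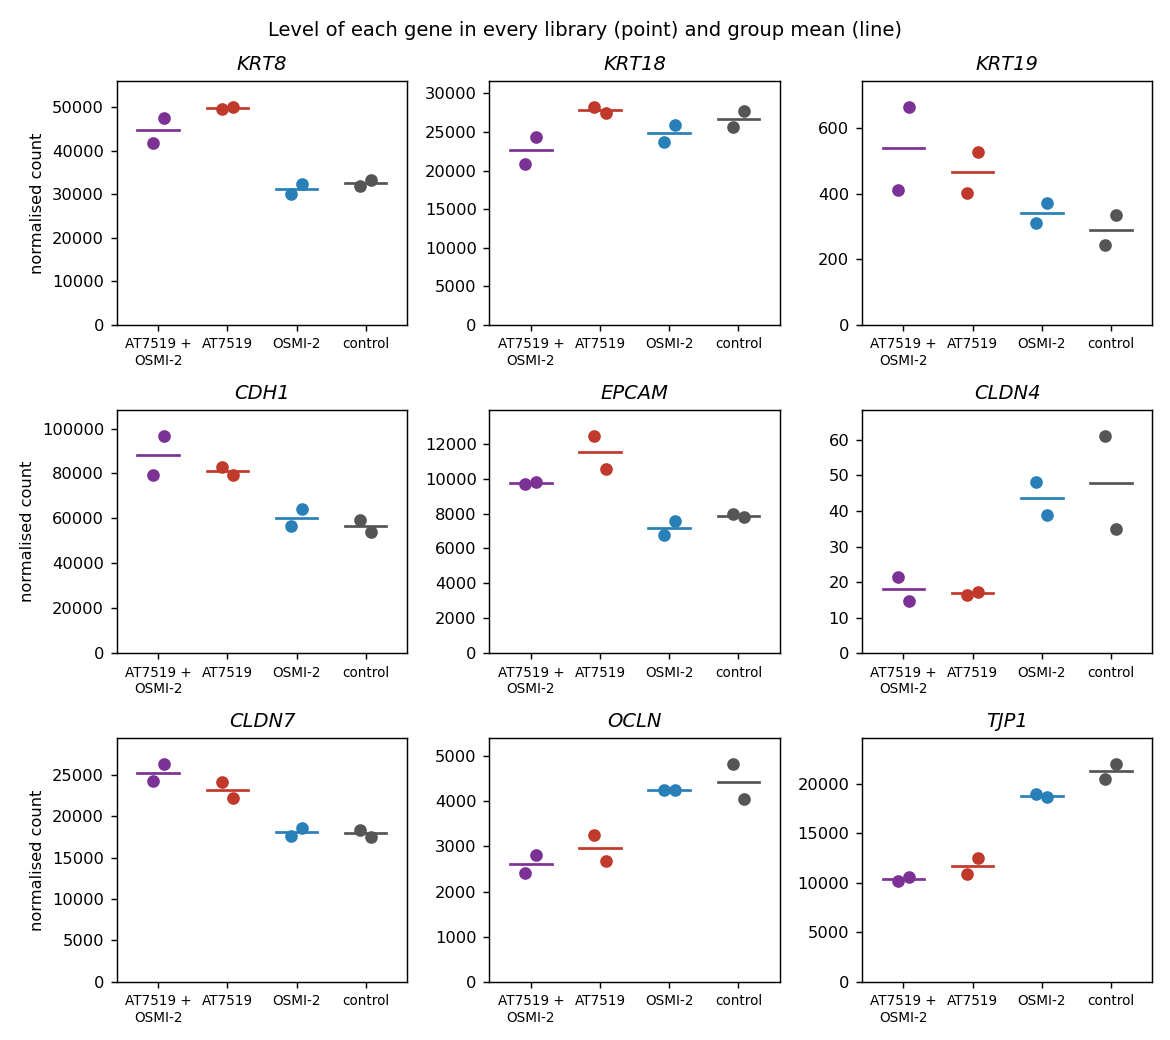
Normalised counts of the 9 detected genes in each library (points) with the group mean (line), on linear axes from 0, for the combination, AT7519, OSMI-2 and control. On this deposited scale KRT8, CDH1, EPCAM and CLDN7 are higher, and OCLN, TJP1 and CLDN4 lower, in the 4 libraries with AT7519 than in the 4 without it, and the higher ones are lower than control at equal mitochondrial mRNAs.

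Of the keratins, KRT8 had 41881 and 47599.7 normalised counts with the combination, 49674 and 50037 with AT7519, 30017 and 32334 with OSMI-2, and 31881 and 33388 in control. The 4 libraries with AT7519 all lay above the 4 without it. KRT8 rose with AT7519 by 0.61 on the log2 scale (SE 0.0773, 1.53-fold, limma adjusted p = 1.47e-05) and kept its call at equal library totals (0.27, adjusted p = 0.00747), but was lower at equal mitochondrial mRNAs (-0.30). This rise lay at the 84.7 percentile of the changes of all tested genes.

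KRT18, which forms the filament with KRT8, did not follow it. It had 20822 and 24392 normalised counts with the combination, 28219 and 27419 with AT7519, 23724 and 25889 with OSMI-2, and 25645 and 27749 in control. The AT7519 and control libraries overlapped, and the log2 difference was 0.06 (95% interval -0.12 to 0.24, limma adjusted p = 0.581). It was called lower at equal library totals (-0.28, adjusted p = 0.00973). With the combination it fell by 0.24 on the log2 scale (adjusted p = 0.0268), a call lost without control replicate 2 (adjusted p = 0.181), without combination replicate 1 (0.284) or at equal upper quartiles (0.301).

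KRT19 was the scarcest of the 3 keratins. It had 412 and 664 normalised counts with the combination, 403 and 527 with AT7519, 311 and 373 with OSMI-2, and 243 and 335 in control. Libraries with AT7519 were above those without it, with the smallest gap, between 403 and 373, less than the spread in any group. It rose by 0.69 with AT7519 (SE 0.234, limma adjusted p = 0.0224) and by 0.87 with the combination (adjusted p = 0.00573). These calls were lost without control replicate 1 (adjusted p = 0.211 with AT7519 and 0.0821 with the combination), and the first also without AT7519 replicate 2 (0.153) and the second without combination replicate 2 (0.0944). With equal library totals the change with AT7519 was 0.35 and not called (0.236), and with equal mitochondrial mRNAs it was -0.22.

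The partners KRT8 and KRT18 were set against each other within libraries, a ratio that no scaling of libraries alters. It was 2.01 and 1.95 with the combination, 1.76 and 1.82 with AT7519, 1.26 and 1.25 with OSMI-2, and 1.24 and 1.20 in control. The means were 1.98 ± 0.0424 with the combination, 1.79 ± 0.0460 with AT7519, 1.26 ± 0.0113 with OSMI-2 and 1.22 ± 0.0283 in control (SD, n = 2 each), and the groups did not overlap. An exact two-sided permutation test gave p = 0.333 for AT7519 against control, the smallest value that 2 against 2 allows. KRT8 and KRT18 overlap on opposite strands in GENCODE release 29, and whether counting used the strand is not given in the sources used here. Rows of KRT8 pseudogenes summed to 2.70% to 5.52% of KRT8 and rows of KRT18 pseudogenes to 1.25% to 1.90% of KRT18. Of 13 tested KRT8 pseudogenes, 10 had both AT7519 libraries above both controls, as KRT8 did, and 1 had both below, which was so for 37.7% and 38.4% of all tested genes. Whether reads of KRT8 itself fell on these rows was not tested, so they are no separate support for its rise. KRT8P3 had 542 and 523 normalised counts with the combination and 559 and 592 with AT7519, against 358 and 396 with OSMI-2 and 404 and 395 in control. The 1 below, KRT8P12, which was named after its values were seen, had 294 and 215 normalised counts with the combination and 346 and 262 with AT7519, against 829 and 844 with OSMI-2 and 800 and 869 in control.

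**Figure D2:**
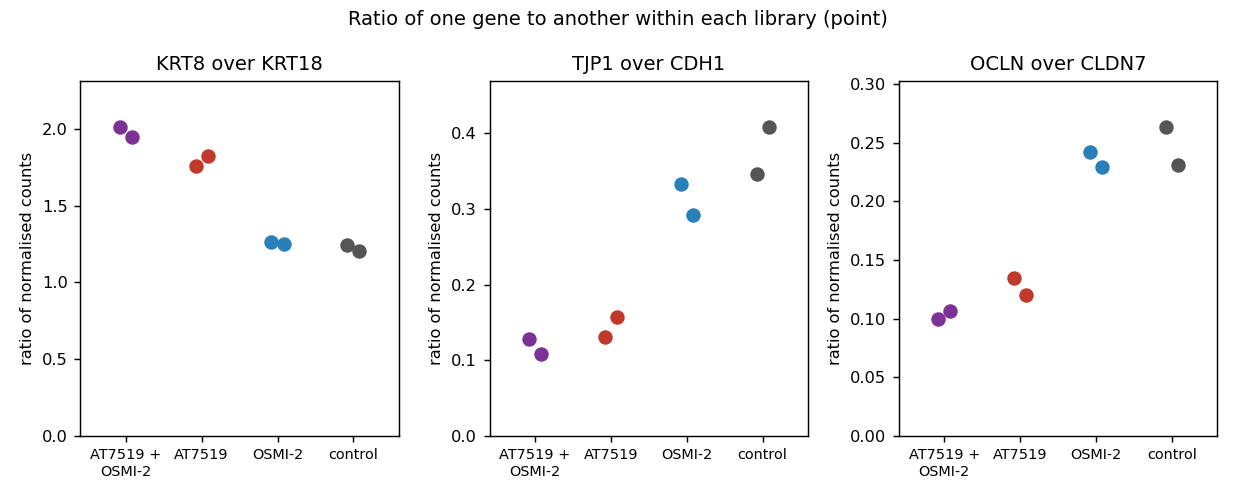
Ratio of normalised counts of KRT8 to KRT18, TJP1 to CDH1 and OCLN to CLDN7 within each library (points), on axes from 0, for the combination, AT7519, OSMI-2 and control. The KRT8 to KRT18 ratio is 1.76 to 2.01 in the 4 libraries with AT7519 and 1.20 to 1.26 in the 4 without it, and the other ratios are lower with AT7519.

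CDH1, the adherens junction cadherin, had 79227 and 96839 normalised counts with the combination, 82861 and 79342 with AT7519, 56634 and 64011 with OSMI-2, and 59207 and 53795 in control. Every library with AT7519 was above every library without it. It rose by 0.52 on the log2 scale with AT7519 (SE 0.0945, 1.44-fold, limma adjusted p = 0.000322) and by 0.63 with the combination (1.55-fold, adjusted p = 5.69e-05). At equal library totals the first was 0.18 (adjusted p = 0.116) and the second 0.38 (0.00338), and at equal mitochondrial mRNAs they were -0.39 and -0.34.

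EPCAM had 9695 and 9826 normalised counts with the combination, 12461 and 10532.5 with AT7519, 6764 and 7564 with OSMI-2, and 7974 and 7792 in control. The AT7519 libraries were the highest, then those of the combination, with no overlap with the others. EPCAM rose by 0.54 with AT7519 (SE 0.0919, 1.45-fold, limma adjusted p = 0.000197), which was 0.20 and not called at equal library totals (0.0713) and -0.38 at equal mitochondrial mRNAs. With the combination it rose by 0.31 (adjusted p = 0.0110), a call lost without control replicate 2 (adjusted p = 0.0633), without combination replicate 2 (0.0519) and at equal library totals (0.666).

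Among claudins, CLDN7, the partner of EPCAM, had 24217 and 26317.5 normalised counts with the combination, 24206 and 22262 with AT7519, 17595 and 18607 with OSMI-2, and 18331 and 17543 in control. The 4 libraries with AT7519 again lay above the rest. CLDN7 rose by 0.37 with AT7519 (SE 0.0770, 1.29-fold, limma adjusted p = 0.000943) and by 0.49 with the combination (1.41-fold, adjusted p = 8.61e-05), and these were 0.03 and 0.23 at equal library totals and -0.54 and -0.48 at equal mitochondrial mRNAs. ELP5 on the other strand and the gene AC003688.1 on the same strand overlap CLDN7 in GENCODE release 29.

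CLDN4, a barrier-forming claudin, was measured by few reads, 21 and 8 with the combination, 13 and 17 with AT7519, 49 and 47 with OSMI-2, and 104 and 38 in control. In normalised counts these were 21.5 and 14.6 with the combination, 16.5 and 17.3 with AT7519, 48.1 and 38.9 with OSMI-2, and 61.2 and 34.8 in control. The exact Poisson interval of the highest library with AT7519 (13.3 to 32.9 normalised counts in combination replicate 1) overlapped that of the lowest without it (24.6 to 47.8 in control replicate 2), and such intervals cover counting error only. CLDN4 fell with AT7519 by 1.40 on the log2 scale (SE 0.438, limma adjusted p = 0.0149) and with the combination by 1.33 (adjusted p = 0.0191). Without control replicate 1 the adjusted p was 0.177 with AT7519 and 0.206 with the combination, and the second call was also lost without combination replicate 2 (0.0976).

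OCLN, the occludin gene, had 2409 and 2808 normalised counts with the combination, 3261 and 2675 with AT7519, 4253 and 4261 with OSMI-2, and 4825 and 4049 in control. All libraries with AT7519 were below all without it. It fell by 0.58 with AT7519 (SE 0.119, 1.496-fold lower, limma adjusted p = 0.000865) and by 0.76 with the combination (1.70-fold lower, adjusted p = 8.27e-05).

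TJP1, the gene of the ZO-1 scaffold, showed the lowest adjusted p among the 10 genes. It had 10156 and 10523 normalised counts with the combination, 10856 and 12477 with AT7519, 18902 and 18661 with OSMI-2, and 20478 and 21959 in control. The groups with AT7519 did not overlap those without it. TJP1 fell by 0.87 with AT7519 (SE 0.0819, 1.82-fold lower, limma adjusted p = 1.16e-06) and by 1.04 with the combination (2.05-fold lower, adjusted p = 1.76e-07). At equal library totals and equal mitochondrial mRNAs it was lower still, by log2 changes of -1.21 and -1.78 with AT7519.

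Set against CDH1 within each library, TJP1 had ratios of 0.128 and 0.109 with the combination, 0.131 and 0.157 with AT7519, 0.334 and 0.292 with OSMI-2, and 0.346 and 0.408 in control. The ratio of OCLN to CLDN7 averaged 0.103 ± 0.00510 with the combination, 0.128 ± 0.0102 with AT7519, 0.235 ± 0.00898 with OSMI-2 and 0.247 ± 0.0229 in control (SD, n = 2 each). Libraries with and without AT7519 did not overlap in either ratio, and the exact two-sided permutation p for AT7519 against control was 0.333, the smallest possible. Relative to CDH1 and CLDN7, TJP1 and OCLN were thus scarcer with AT7519 whichever way libraries were scaled. Each ratio sets a gene that fell over one that rose, each already without overlap, so its separation was fixed beforehand and adds no support. Of the other ratios computed, KRT19 to KRT18 overlapped (0.0143 in AT7519 replicate 1 and 0.0144 in OSMI-2 replicate 2). CLDN7 to CLDN12 did not (1.41 to 1.59 with AT7519 and 1.02 to 1.25 without it).

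The combination against control asks what both agents did together. KRT8, KRT19, CDH1, EPCAM and CLDN7 rose and KRT18, CLDN4, OCLN and TJP1 fell, so all 9 tested genes were called, where 53.9% of all tested genes were (26.3% higher and 27.6% lower). At equal mitochondrial mRNAs the 5 that rose were lower than control (-0.67 to -0.10), and the 4 that fell were lower under each scaling. Their median log2 change was 0.31, against 0.02 for all tested genes. The 5 lay above and the 4 below both controls in both libraries, as did 39% and 38% of all tested genes. The largest rises were those of KRT19 (1.83-fold) and CDH1 (1.55-fold), and KRT8 rose by 0.45 on the log2 scale (1.37-fold, limma adjusted p = 0.000187). Comparisons of AT7519 and of the combination with control share the same control libraries.

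**Figure D3:**
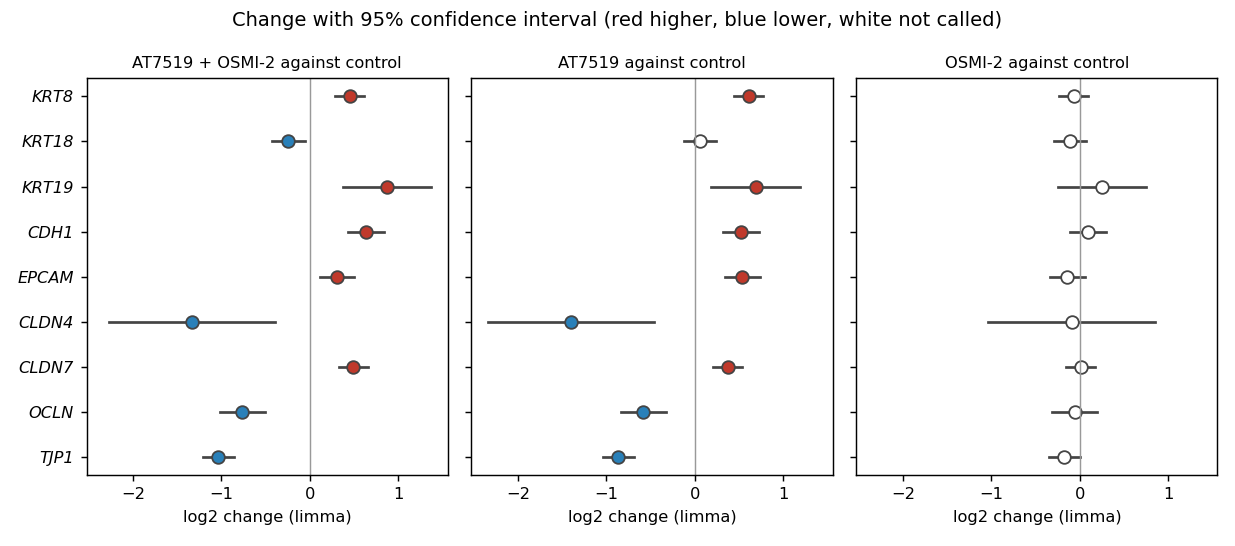
Log2 change (limma, deposited scale) with its 95% confidence interval for 9 genes in the combination, AT7519 and OSMI-2, each against control, with called genes filled red (higher) or blue (lower). The 2 panels with AT7519 show 5 genes higher, which are lower at equal mitochondrial mRNAs, and all intervals for OSMI-2 include 0.

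OSMI-2 against control asks what blocking OGT alone did. None of the 9 tested genes was called by limma, edgeR or DESeq2, and none had an unadjusted limma p below 0.05, where 3.02% of all tested genes were called (0.645% higher and 2.38% lower). The lowest p was that of TJP1 (log2 change -0.18, 95% interval -0.35 to 0.00, adjusted p = 0.282), whose 2 libraries lay below both controls. EPCAM also lay below both controls (log2 change -0.14, interval -0.34 to 0.06). Such an order, 2 of the 9 genes below, was seen for 30.1% of all tested genes. For KRT8 (interval -0.23 to 0.10), KRT18 (-0.29 to 0.08), CDH1 (-0.11 to 0.30), CLDN7 (-0.15 to 0.18) and OCLN (-0.31 to 0.20) the groups overlapped. For KRT19 (-0.25 to 0.76) and CLDN4 (-1.03 to 0.85) the intervals were wider. The median log2 change was -0.07, against -0.02 for all tested genes.

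The combination against AT7519 asks what OSMI-2 added to CDK inhibition. Only KRT18 was called, lower by 0.30 on the log2 scale (SE 0.0857, limma adjusted p = 0.0235), where 19.7% of all tested genes were called (7.21% higher and 12.5% lower). Its call was lost without AT7519 replicate 1 (adjusted p = 0.0989), without combination replicate 1 (0.195), at equal library totals (0.0791) and at equal upper quartiles (0.109). EPCAM was 1.17-fold lower (log2 change -0.23, adjusted p = 0.0943), and was called without AT7519 replicate 2 (adjusted p = 0.0207). KRT8 (-0.16, adjusted p = 0.171) and TJP1 (-0.17, 0.166) also lay below AT7519 in both libraries without being called. CDH1, KRT19, CLDN4 and CLDN7 had log2 differences of 0.11, 0.18, 0.07 and 0.12 that were not called. Both combination libraries lay above both AT7519 libraries for 1 gene (CLDN7) and below for 4, as for 25% and 30.6% of all tested genes. The median of the 9 was -0.16, against -0.02 for all tested genes.

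The combination against OSMI-2 asks what CDK inhibition did in cells with OGT blocked. KRT8, KRT19, CDH1, EPCAM and CLDN7 rose by log2 changes of 0.45 to 0.62, and CLDN4, OCLN and TJP1 fell by 1.24, 0.71 and 0.86, so 8 of 9 were called, where 54.8% of all tested genes were (27.5% higher and 27.3% lower). The 5 that rose were not called at equal library totals and were lower at equal mitochondrial mRNAs. Libraries did not overlap for these 8 (5 above and 3 below), as for 40.1% and 37.3% of all tested genes. KRT18 was not called (-0.14, limma adjusted p = 0.194), but was called lower at equal library totals (-0.47, 0.000241), at equal mitochondrial mRNAs (-0.99, 2.70e-15) and without combination replicate 2 (-0.25, 0.0442). The call of KRT19 (0.62, adjusted p = 0.0369) was lost without combination replicate 2 (0.384), OSMI-2 replicate 1 (0.204) or OSMI-2 replicate 2 (0.0555). That of CLDN4 (adjusted p = 0.0269) was lost without combination replicate 2 (0.127), OSMI-2 replicate 1 (0.149) or OSMI-2 replicate 2 (0.0662), with DESeq2 (0.0692) and without a filter (0.0782).

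The interaction tests whether the effect of AT7519 differed with OSMI-2 present. None of the 9 genes was called by limma, edgeR or DESeq2, and none had an unadjusted limma p below 0.05, where 1.04% of all tested genes were called (0.0619% higher and 0.975% lower). The lowest adjusted p was that of KRT18 (log2 -0.20, 95% interval -0.46 to 0.06, adjusted p = 0.688). For TJP1 the interval was -0.24 to 0.25 and for CDH1 -0.27 to 0.30, and differences within these limits could not be told from none.

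The scale decides the direction of the 5 genes that rose. Scaling to equal library totals put the median log2 change of all tested genes at -0.23 with the combination and -0.34 with AT7519, and scaling to equal mitochondrial mRNAs put it at -0.95 and -0.91. At equal library totals 5 members were called with AT7519, 1 higher (KRT8) and 4 lower (KRT18, CLDN4, OCLN and TJP1), and at equal mitochondrial mRNAs 8 were called, all lower. With the combination the same scalings called 4 higher and 4 lower, and 8 lower. Of all 19393 tested genes, equal library totals called 10400 with AT7519 and 10021 with the combination, in either direction. Equal mitochondrial mRNAs called 15039 with AT7519 and 15015 with the combination. Such a scaling moves all genes alike, so the order of the genes is the same by construction.

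**Figure D4:**
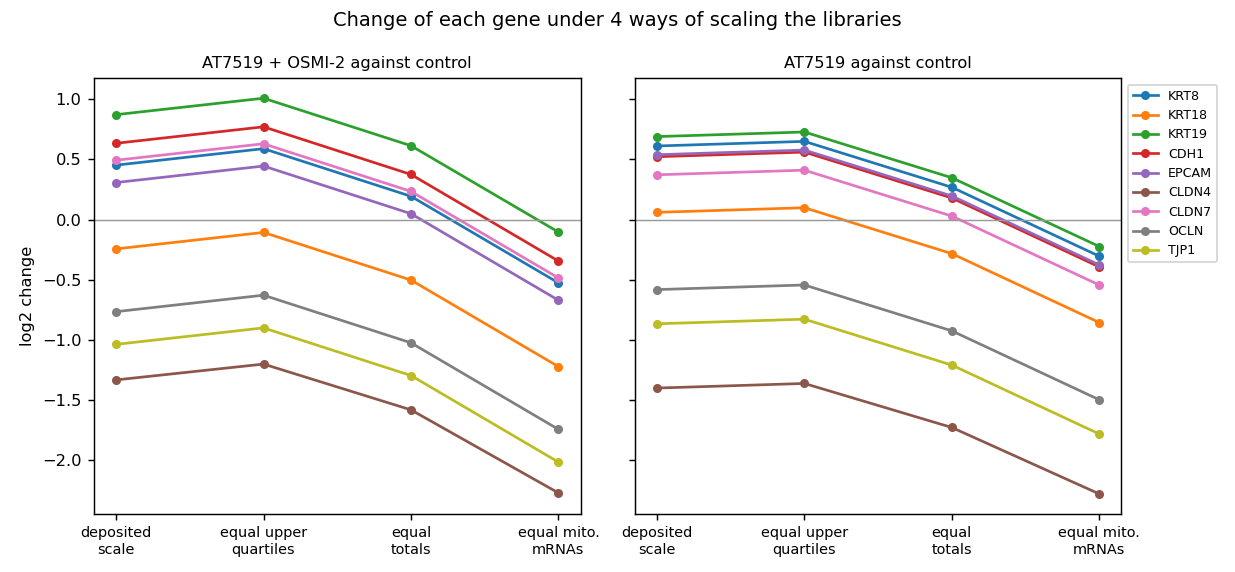
Log2 change of 9 genes in the combination and in AT7519, each against control, on the deposited scale and with libraries scaled to equal upper quartiles, equal totals or equal mitochondrial mRNAs, with lines joining the values of 1 gene. Scaling moves all genes alike, so their order is fixed, while the 5 genes above 0 on the deposited scale are below 0 at equal mitochondrial mRNAs.

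Gene structure differed among the members. TJP1 spans 269.5 kb in 28 exons, CDH1 98.3 kb in 16 and OCLN 65.8 kb in 9, whereas KRT18, CLDN7 and KRT19 span 4.03, 4.08 and 4.69 kb, against a median of 33.2 kb for tested protein-coding genes. With AT7519 on the deposited scale, TJP1, OCLN and CLDN4 (33.2 kb in 2 exons) fell. CDH1, KRT8 (52.8 kb), EPCAM (42.4 kb), KRT19 and CLDN7 rose (lower at equal mitochondrial mRNAs), and KRT18 was not called. A link of gene length or exon number to these changes was not tested.

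The other genes of these junctions were read from lists that were chosen with earlier results of these data known. Of 23 tested adherens junction genes, 12 rose and 3 fell with AT7519, with a median log2 change of 0.28, where 26% of all tested genes rose and 27.2% fell (median -0.0042). Equal library totals called 4 higher and 9 lower, and equal mitochondrial mRNAs called 22, all lower. RHOA, a GTPase that controls actin at junctions, rose by 0.60 (limma adjusted p = 1.16e-05), and PTPRF, a receptor phosphatase, by 0.60 (2.70e-05). CTNNA1 (alpha-catenin), which links E-cadherin to actin, had 43156 and 44353 normalised counts with AT7519, against 31840.0 and 30706 in control, and rose by 0.48 (adjusted p = 7.15e-05, not called at equal library totals, 0.114). CTNNB1 (beta-catenin) was called at 0.20 (adjusted p = 0.0458), a call lost without AT7519 replicate 1 (0.405), without control replicate 1 (0.0741) or 2 (0.208), and without any 1 library of the OSMI-2 or combination groups (0.0572 to 0.0577), with edgeR (0.0680), without a filter (0.103) and without a variance trend (0.157). The 2 catenins were named after their values were seen. With the combination 10 adherens junction genes rose and 3 fell (26.3% and 27.6% of all tested genes, and in the list 4 and 5 at equal library totals and 0 and 22 at equal mitochondrial mRNAs), among them PTPRM, a homophilic receptor phosphatase that rose by 0.71 (adjusted p = 6.22e-05). RHOA, PTPRF, CTNNA1, CTNNB1 and PTPRM were lower than control at equal mitochondrial mRNAs.

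Of 34 tested tight junction scaffold and polarity genes, 7 rose and 11 fell with AT7519 (median log2 change -0.13), and 9 rose and 12 fell with the combination (median -0.02). With AT7519 the share called was near the 53.2% of all tested genes, and with the combination 53.9% of all tested genes were called. Scaled to equal library totals, 3 were higher and 20 lower with AT7519 and 4 and 16 with the combination, and at equal mitochondrial mRNAs 0 and 32, and 0 and 33. PARD3, the polarity scaffold, had 1004 and 979 normalised counts with the combination and 943 and 1005 with AT7519, against 388 and 438 in control, and rose by 1.26 and 1.24 on the log2 scale (limma adjusted p = 3.31e-06 and 4.94e-06, and 0.150 and 0.103 at equal mitochondrial mRNAs). MAGI2, a junctional scaffold, had 54.5 and 53.9 with AT7519, against 246 and 263 in control, and fell by 2.21 (adjusted p = 3.67e-06). AMOTL2, an angiomotin family member, fell by 2.06 with the combination and 1.62 with AT7519. YBX3, a ZO-1-associated Y-box protein, rose by 0.80 with AT7519 (adjusted p = 8.43e-06, -0.12 at equal mitochondrial mRNAs). When OSMI-2 was added to AT7519, the scaffold MAGI3 fell by 0.67 (adjusted p = 0.000717).

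Of 14 tested desmosome genes, which anchor keratin filaments, 3 rose and 3 fell with AT7519, and 3 rose and 2 fell with the combination. Among all tested genes 53.2% and 53.9% were called, and with 14 genes no lower share is read from this. With equal library totals 1 was higher and 7 lower with AT7519 and 1 and 4 with the combination, and at equal mitochondrial mRNAs none was higher and 14 and 13 were lower. PERP rose by 0.66 with AT7519 (limma adjusted p = 6.10e-06) and by 0.65 with the combination against OSMI-2 (5.54e-06), and the cadherin DSG2 rose by 0.37 with AT7519 (0.000869). DSP, the keratin linker desmoplakin, rose by 0.41 with the combination (adjusted p = 0.00125). PERP, DSG2 and DSP were lower than control, and PERP lower than with OSMI-2, at equal mitochondrial mRNAs, and at equal library totals DSG2 (0.0245, adjusted p = 0.793) and DSP (0.15, 0.165) were not called. Of 13 EPCAM partners and proteases, 5 rose and 3 fell with AT7519, and 5 rose and 2 fell with the combination, where 53.2% and 53.9% of all tested genes were called. The counts were 2 higher and 5 lower and 2 higher and 3 lower at equal library totals, and 0 higher and 11 and 12 lower at equal mitochondrial mRNAs. The tetraspanin CD9 rose by 0.65 with AT7519 (adjusted p = 1.99e-05) and the protease inhibitor SPINT2 by 0.80 (0.000119), both lower at equal mitochondrial mRNAs. LEF1, a Wnt pathway transcription factor that acts with the EPCAM intracellular domain, fell by 1.18 with the combination (0.000121) and 1.01 with AT7519 (0.000473).

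The list of keratins outside the 10 had 5 tested genes, and of these only KRT10 was called with AT7519 (0.39, limma adjusted p = 0.0282). The call was lost without control replicate 2 (0.249) or AT7519 replicate 1 (0.268), at equal library totals (0.812), without a filter (0.0530) and without a variance trend (0.105). Of the same 5, only KRT14 was called with the combination (0.92, adjusted p = 0.0239). That call was lost without control replicate 1 (0.165) or combination replicate 2 (0.151), at equal library totals (0.0936) and without a filter (0.0664). Both were below control at equal mitochondrial mRNAs (-0.53 for KRT10 and -0.04 for KRT14). KRT6C, a keratin outside that list, was named after its values were seen, and its call is not given here. It had 1092 and 1291 normalised counts with the combination and 1083 and 1450 with AT7519. With OSMI-2 it had 783 and 844, and in control 803 and 894. Of 5 other tested claudins, only CLDN23 was called against control, lower with AT7519 (-1.95, adjusted p = 0.00970) and with the combination (-1.78, 0.0162). CLDN23 was named after its values were seen, and rested on 7 and 11 reads with the combination, 8 and 11 with AT7519, and 120 and 30 in control. Without control replicate 1 its adjusted p was 0.159 with AT7519 and 0.220 with the combination, and without combination replicate 1 it was 0.146.

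**Figure D5:**
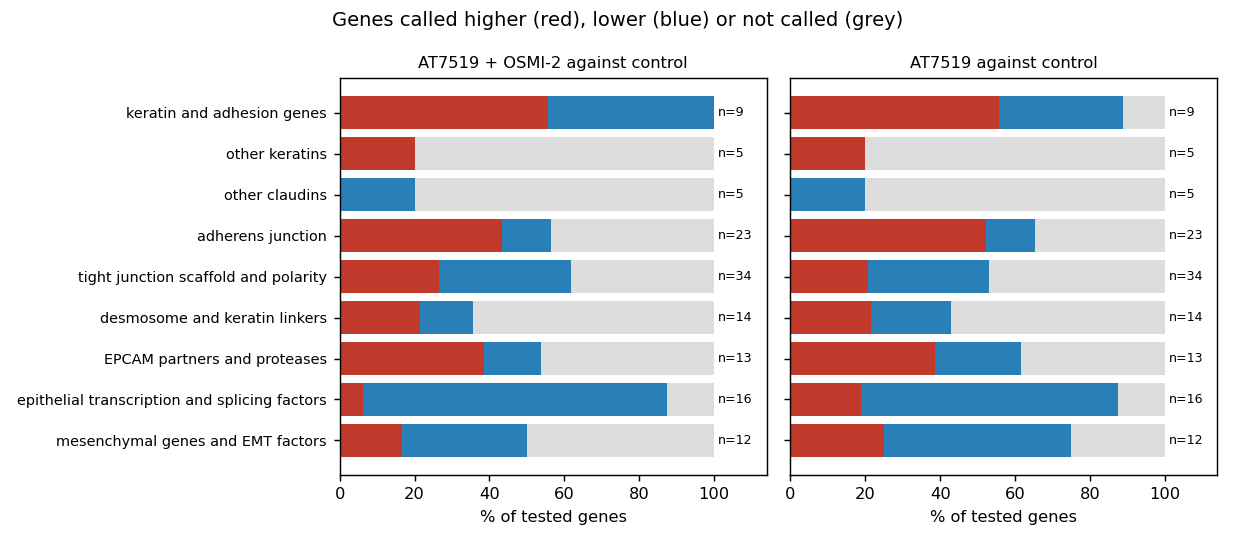
Share of tested genes called higher (red), lower (blue) or not called (grey) in the keratin and adhesion genes and in 8 related lists (n = genes tested), for the combination and for AT7519, each against control, on the deposited scale. In the list of epithelial transcription and splicing factors 13 of 16 genes are lower with the combination and 11 of 16 with AT7519, whereas among adherens junction genes 10 and 12 of 23 are higher, a direction that turns for the genes named from it at equal mitochondrial mRNAs.

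Of 16 tested epithelial transcription and splicing factors, 3 rose and 11 fell with AT7519 (median log2 change -0.75), and 1 rose and 13 fell with the combination (median -1.19), where 27.2% and 27.6% of all tested genes fell and their medians were -0.0042 and 0.02. At equal mitochondrial mRNAs all 16 were called lower in both. That scaling called 15039 of all 19393 tested genes with AT7519 and 15015 with the combination, in either direction. KLF5, a zinc finger factor of epithelial progenitors, fell by 2.77 with the combination (limma adjusted p = 2.21e-06) and 2.19 with AT7519 (2.24e-05). TFAP2C, an AP-2 factor, fell by 1.89 with AT7519 (2.04e-07). FOXA1, the pioneer factor of luminal prostate cells, rose by 0.51 with AT7519 (6.50e-05) and by 0.24 with the combination (0.0147), and was lower than control in both at equal mitochondrial mRNAs and with the combination at equal library totals (-0.01). The FOXA1 call with AT7519 was lost at equal library totals (0.17, adjusted p = 0.0586), and that with the combination without control replicate 2 (0.114), without combination replicate 2 (0.0675) and without a variance trend (0.0823). Its combination call was lost without control replicate 2 (0.114) or combination replicate 2 (0.0675). KLF4, a factor of differentiated epithelia, had 70.7 and 76.6 normalised counts with the combination, 216 and 215 with AT7519, 605 and 582.5 with OSMI-2, and 670 and 532 in control. ELF3, an epithelial ETS factor, had 1875 and 1765 with the combination, 3554 and 3712.5 with AT7519, 2580 and 2760 with OSMI-2, and 2989 and 2917.5 in control. When OSMI-2 was added to AT7519, 1 of the 16 rose (ESRP1, a splicing regulator, by 0.41, adjusted p = 0.00678) and 7 fell, where 7.21% of all tested genes rose and 12.5% fell, among them KLF4 by 1.53 (0.000145) and ELF3 by 0.997 (4.84e-05).

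Of 12 tested mesenchymal genes and factors of epithelial to mesenchymal transition, 3 rose and 6 fell with AT7519, and 2 rose and 4 fell with the combination, where 53.2% and 53.9% of all tested genes were called. For equal library totals, 0 were higher and 7 lower with AT7519 and 2 and 5 with the combination, and at equal mitochondrial mRNAs 0 and 10, and 0 and 8. SNAI1 had 5 and 1 reads with the combination, 21 and 8 with AT7519, 52 and 99 with OSMI-2, and 194 and 181 in control. SNAI2 had 4 and 0 reads with the combination, 16 and 7 with AT7519, 100 and 107 with OSMI-2, and 134 and 135 in control. Both fell with AT7519 (limma adjusted p = 0.000336 for SNAI1 and 0.00236 for SNAI2), as did CLDN4, OCLN and TJP1, while CDH1 and CLDN7 rose on the deposited scale. FN1 (fibronectin) rose by 0.83 with the combination (2.57e-05) and 0.58 with AT7519 (0.000573, and 0.106 at equal library totals), and VIM (vimentin) by 0.78 with the combination (5.64e-05), and both were below control at equal mitochondrial mRNAs. The summed counts of 9 stromal markers, VIM among them, were 6455 to 7621 with the combination and 5553 to 6672 with AT7519, against 4357 to 5049 with OSMI-2 and 4194 to 4353 in control. Of the 9, 5 were tested and 3 rose with AT7519 and 3 with the combination on the deposited scale, against 0 and 3 at equal library totals, while 3 and 2 fell at equal mitochondrial mRNAs. COL1A1 had 1814 to 3726 normalised counts over the 8 libraries, COL3A1 358 to 789 and ACTA2 229 to 553, whereas COL1A2, DCN and DES did not exceed 0.829, 7.29 and 1.02. CDH2 (N-cadherin) was listed at 0 in all 8 libraries, and, as for CLDN3, nothing is read from it. The part of these shifts, or of the mitochondrial share, in the results was not tested.

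Genes whose log2 levels followed each member most closely over the 8 libraries were read as a description, since the libraries share the treatment groups and the scale. CERS2 followed KRT8 (Pearson r = 0.996), TMPRSS13 followed CDH1 (0.995), PLEKHB1 followed CLDN7 (0.994), RPL21P134, a ribosomal protein pseudogene, followed EPCAM (0.993), MPZL3 followed OCLN (0.994) and RBBP5 followed TJP1 (0.997). Of 13355 genes compared, 993 had r above 0.95 with KRT8 and 1066 with TJP1, but only 2 with KRT18, SEC23IP (0.972) and GNPTAB (0.954). KRT19 was followed by GPNMB (0.983) and CLDN4 by GRK1 (0.983). KRT18 stood apart from the other members too, with r = 0.14 against KRT8, whereas CDH1 and CLDN7 had r = 0.98 and TJP1 and CLDN7 r = -0.97.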

How the data were processed

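RNA was isolated with Illustra RNAspin kits and libraries were made with a strand-specific TruSeq kit, per the labels' protocols. The deposited signal per gene and library is a read count scaled by the authors with a single size factor for each library; STAR, HTSeq, DESeq2, hg19 and GRCh37 are named in the submitters' processing notes, and the sources used here do not give their roles, their versions, the annotation or the strand setting. Dividing each column by its smallest step gave whole reads for 100% of values within 0.01, so the depth was recovered (60152710 to 154367238 reads). After 28 lines without a name were dropped, 55737 genes remained. A linear model over the 4 groups (limma 3.58.1, mean-variance trend, pseudocount 1, mean of at least 10 normalised counts) was fitted to 19393 genes (residual df 4, prior df 10.1). The members and lists were chosen with earlier results of these data known. Besides the members, the text draws on a rule: per list and comparison, up to 2 called genes that rose most and 2 that fell most (mean of at least 50), and for each member the 2 genes with the highest r. Some that the rule gives are not named, a choice made after seeing values, and 1 is not reported here. Log2 changes are on the log2(value + 1) scale, which understates changes of low genes. Intervals and floors cover counting error only. edgeR 4.0.16 (TMM) and DESeq2 1.42.0 on the recovered reads, other pseudocounts, filters and scalings, a replicate block and leaving out each library were alternatives. The code was checked on simulated counts.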

Additional observations from a re-analysis of the deposited data

Results flagged for a closer look

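Among the factors named beside the keratin and adhesion genes, KLF4, ELF3 and GATA2 met a test that the effect of AT7519 differed with OSMI-2 present (limma interaction, Benjamini-Hochberg adjusted over 19393 genes). The interaction was -1.53 on the log2 scale for KLF4 (adjusted p = 0.0154), -0.85 for ELF3 (0.0127) and -0.73 for GATA2 (0.0278). AT7519 changed KLF4 by -3.00 in the presence of OSMI-2 and by -1.47 in its absence. GATA2, a luminal lineage factor named after its values were seen, had 9268 and 7260.0 normalised counts with the combination, 14466 and 13176 with AT7519, 14161 and 14242 with OSMI-2, and 14072 and 14759 in control. These calls were lost without either control library or either OSMI-2 library (adjusted p of 0.0787 to 0.120 for KLF4, 0.0583 to 0.102 for ELF3 and 0.114 to 0.164 for GATA2). That of GATA2 was also lost without AT7519 replicate 1 (0.0899) or combination replicate 2 (0.0946), and at equal upper quartiles (0.0515). Without a variance trend KLF4 (0.254), ELF3 (0.254) and GATA2 (0.3825) were all lost, and no tested gene was called. Without a filter KLF4 (0.0518) and GATA2 (0.09635) were lost. None of the 9 tested keratin and adhesion genes met this test, where 1.04% of all tested genes did. Groups of 2 libraries allow no test for a library that stands apart.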

How the results depend on the processing

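Replicate numbers were not taken to pair the libraries, and whether they do is not settled here. Deviations of same-numbered libraries correlated at 0.02 to 0.12, with 2 numbers only. Over all tested genes a replicate block called 865 with OSMI-2 and 404 in the interaction, against 586 and 201 without it. It called 0, 8, 9, 1, 8 and 0 of the 9 genes in the comparisons of OSMI-2, AT7519 and the combination with control, the combination with AT7519 and with OSMI-2, and the interaction. These counts were the same without it, but 9 genes are too few to show whether libraries were paired. At equal library totals 5 genes were called with AT7519 and 4 in the combination against OSMI-2. Of all 19393 tested genes, 10400 and 9991 were called in these comparisons at that scaling. The single call of the combination against AT7519 became 0 without a filter, without a variance trend, at equal library totals and at equal upper quartiles. Leaving out 1 library at a time gave 0 to 0, 6 to 8, 6 to 9, 0 to 2, 6 to 8 and 0 to 0 calls in the same order. Of 54 log2 changes of the 9 genes over the 6 comparisons, all 54 kept direction and call with edgeR and at pseudocounts of 0.5 and 8, whereas 52 did with DESeq2, 48 without a variance trend and 47 without a filter. Directions that turned lay as follows, and the cause was not tested. At equal library totals KRT18 was -0.28 and CTNNB1 -0.14 with AT7519, FOXA1 -0.0142 with the combination, and KRT8 0.0088 and OCLN 0.021 with OSMI-2, the last 0.0046 at equal upper quartiles, and with DESeq2 the interaction of TJP1 was -0.0147. At equal mitochondrial mRNAs the changes with AT7519 were CDH1 -0.39, CLDN7 -0.54, EPCAM -0.38, KRT8 -0.30, KRT18 -0.86, KRT19 -0.22, CTNNA1 -0.43, CTNNB1 -0.71, RHOA -0.32, PTPRF -0.32, CD9 -0.26, SPINT2 -0.12, PERP -0.26, DSG2 -0.55, YBX3 -0.12, KRT10 -0.53, FN1 -0.33 and FOXA1 -0.40. With the combination they were CDH1 -0.34, CLDN7 -0.48, EPCAM -0.67, KRT8 -0.53, KRT19 -0.10, KRT14 -0.041, PTPRM -0.27, DSP -0.57, FN1 -0.15, VIM -0.19 and FOXA1 -0.73. In the combination against OSMI-2 they were CDH1 -0.31, CLDN7 -0.37, EPCAM -0.40, KRT8 -0.33, KRT19 -0.23 and PERP -0.20, and with OSMI-2 alone CDH1 -0.0315 and CLDN7 -0.11. Leaving out 1 library turned small uncalled values. With OSMI-2 they ranged over -0.49 to 0.31 (CLDN4), -0.0274 to 0.0533 (CLDN7) and -0.18 to 0.072 (OCLN), and in the combination against AT7519 over -0.0334 to 0.26 (CDH1), -0.20 to 0.33 (CLDN4) and -0.16 to 0.53 (KRT19). In the interaction they ranged over -0.13 to 0.16 (CDH1), -0.24 to 0.56 (CLDN4), -0.21 to 0.0303 (EPCAM), -0.42 to 0.27 (KRT19), -0.27 to 0.0139 (OCLN) and -0.10 to 0.10 (TJP1). Depth limits CLDN4 (8 to 104 reads), SNAI1 and SNAI2, and 3 reads are worth 1.76 to 5.47 normalised counts.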
